A study of Mus musculus with 12 samples.

Results

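The heterozygotes of the whirligig series were set against the midpoint of the other genotypes. The contrast was the mean of the 4 heterozygous arrays (Chd7Whi/+) minus the average of the wild-type mean (Chd7+/+, 4 arrays) and the homozygous mean (Chd7Whi/Whi, 4 arrays), and it drew on all 12 arrays of the 12 in the series. Each array held RNA of whole female mouse embryos of a mixed C3HeB/FeJ background at embryonic day 9.5, taken out of their yolk sacs from crosses of heterozygous parents. The embryos carried 0, 1 or 2 copies of the whirligig allele, a single mutant allele of Chd7, so that maternal genotype was heterozygous for every embryo. Samples that share a genotype are biological replicates by their labels, which do not say how many embryos or litters stand behind each, so p-values measure the spread between these samples. Replicates were numbered in accession order, so a number names an array and pairs nothing.

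Chd7 encodes a chromatin remodelling helicase of the CHD family that binds enhancers and promoters, and loss of 1 copy causes CHARGE syndrome in humans. In mice, heterozygotes for whirligig live with defects of the inner ear and other organs, while homozygotes die during gestation. When expression follows allele dose additively on a log scale, the heterozygote mean lies at the midpoint of the outer genotypes, and the departure tested here is 0. A gene whose heterozygote mean equals the wild-type mean follows a recessive pattern, and one whose heterozygote mean equals the homozygous mean a dominant pattern, used here only as names for a position.

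Signals are given as log2 of the processed intensity over the array's own 75th percentile, so 0 is the level of a probe at that percentile and most developmental regulators have negative values. The share of probes that exceeded background clearly (the scanner's call) ran from 69.1% to 75.7% per array. The slope of the added control RNAs (spike-ins) ran from 0.82 to 0.91. By the flag in the files it was in range only on wild-type replicate 2. The bearing of this slope on dim signals was not tested. Pairs of arrays correlated at 0.986 to 0.995 when they shared a genotype and at 0.983 to 0.994 when they did not, over tested genes. The level of Chd7 itself is not analysed here. Xist was well above background on 12 arrays, and the Y-linked Eif2s3y, Kdm5d and Uty on 0. The Y-linked Ddx3y was above background on 1 array, wild-type replicate 1, at -6.18 against -9.32 to -8.41 on the others. Heterozygous replicate 1 stood apart from the other arrays: 103 genes lay more than 2 below the midpoint there, against 4 to 20 genes on each of the other 11 arrays. The log2 of the summed signal of 8 heart muscle markers was 3.14 on that array and 7.05 to 7.74 on the others.

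No gene departed from the midpoint past the adjusted threshold of 0.05 among 22562 genes and identifiers tested (0% called, limma with Benjamini-Hochberg adjustment), and the smallest adjusted p was 0.544. With no adjustment, p fell under 0.05 in 1763 genes (7.81%), 1453 above the midpoint (6.44%) and 310 below it (1.37%), where 5% of the genes tested is 1128.1. Without heterozygous replicate 2 this count was 3508, and without heterozygous replicate 3 it was 1138, and the adjusted threshold was passed by 0 genes in either case. The median 95% confidence interval of a departure extended 0.28 to each side (quartiles 0.21 and 0.39). The whole interval lay within 1 log2 unit of the midpoint for 21026 genes (93.2%) and within 0.5 for 14538 (64.4%). Departures larger than those bounds were therefore outside the 95% intervals of these genes. The heterozygous embryos differed from wild type in 2 genes or identifiers (0.00886% called, both lower) and from homozygotes in 3 (0.0133% called, in each the homozygotes lower), against 309 (1.37% called) between homozygotes and wild type. These comparisons share arrays with each other and with the departure.

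The genes past the threshold in the comparisons that involve heterozygotes were Vit, Myot and 2 identifiers without a symbol, and they are named because they are so few, after their values were seen. Vit, which encodes the extracellular matrix protein vitrin, measured -3.20 to -2.74 in wild type, -3.96 to -3.66 in heterozygotes and -5.28 to -4.78 in homozygotes. The groups did not overlap. Its departure was 0.25 ± 0.12 (SE), with the heterozygotes on the wild-type side of the midpoint. Myot, which encodes the Z-disc protein myotilin of striated muscle, measured -5.59 in wild type, and 0 heterozygous and 0 homozygous arrays were well above background. The identifier ENSMUST00000001667 stepped down by similar amounts, from -1.16 to -2.40 to -3.82, with a departure of 0.09 ± 0.11 (SE). The identifier AK050844 measured -4.49 in wild type and -5.56 in heterozygotes, and 0 homozygous arrays were well above background, so its departure was not measured.

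For 83 genes (0.368% of those tested) all 4 heterozygous arrays lay outside the range of the 8 others, 66 above (0.293%) and 17 below (0.0753%). Of these, 40 had a symbol, 30 above and 10 below. This count has no spread of its own. Leaving out any array makes the condition easier to meet, so the count can then only rise. It was 146 without wild-type replicate 1, 390 without homozygous replicate 2 and 127 without homozygous replicate 3. Without each of the other wild-type or homozygous arrays it was 89 to 106. It was 217 without heterozygous replicate 1, 611 without replicate 2, 136 without replicate 3 and 162 without replicate 4. With normexp background correction it was 13. Of the 22562 genes, 192 entered the test only because all 4 heterozygous arrays were above background, and 5 of the 66 genes above were among them. Of these 192 genes, 185 had a positive departure, the direction that this way through the filter favours, and they are part of all counts given here. Over the 20855 genes above background on all 12 arrays, 57.0% of departures were positive.

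Chad, which encodes the cartilage matrix protein chondroadherin, had the smallest p among genes with a symbol above the midpoint. It measured -4.29, -4.28, -4.22 and -4.15 on the heterozygous arrays, -4.84, -4.98, -4.94 and -5.44 on the wild-type arrays and -5.10, -4.38, -4.94 and -4.86 on the homozygous arrays. The heterozygous arrays were the 4 highest and lay close together, and homozygous replicate 2 came within their reach. The departure was 0.70 ± 0.14 (SE; limma adjusted p = 0.544), and within the 3 slides it was 0.68, 0.45 and 1.03.

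Prss30, a serine protease gene, measured -5.31, -5.27, -4.86 and -5.10 in heterozygotes, against -5.81 to -5.47 in wild type and -5.81 to -5.42 in homozygotes. The heterozygous arrays lay above both other groups, which overlapped. Its departure was 0.53 ± 0.11 (SE). Hgd encodes homogentisate dioxygenase, an enzyme of tyrosine breakdown, and measured -6.97 ± 0.30 in wild type, -6.20 ± 0.15 in heterozygotes and -6.76 ± 0.26 in homozygotes (SD, n = 4). It was well above background on 2 wild-type, 4 heterozygous and 2 homozygous arrays, so it passed the background filter only through heterozygotes. Dspp, which encodes the dentin precursor dentin sialophosphoprotein, measured -5.76, -5.27, -4.48 and -5.70 in heterozygotes and lay between -6.76 and -5.77 on the 8 others. Its departure of 0.78 ± 0.22 (SE) was 0.51 without heterozygous replicate 3. F5, the gene of coagulation factor V, measured -4.57, -4.43, -4.54 and -3.51 in heterozygotes, and its departure of 0.71 ± 0.22 (SE) was 0.46 without heterozygous replicate 4.

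Lcn2, which encodes an iron-siderophore binding lipocalin, measured -3.09 to -2.89 in heterozygotes, -3.65 ± 0.32 in wild type and -3.54 ± 0.32 in homozygotes (SD, n = 4), and the highest homozygous array reached -3.09. Mog, a gene of the myelin sheath, measured -1.31 ± 0.07 in heterozygotes, -1.91 ± 0.27 in wild type and -1.75 ± 0.30 in homozygotes (SD, n = 4). In both genes the heterozygous arrays were the tightest group. The other genes with symbols among the 10 largest departures above were Olfr320, an olfactory receptor gene at 0.73 that passed the background filter only through heterozygotes, Gbp5, an interferon-induced GTPase gene at 0.66, and Ssxb9 at 0.54. Sypl2 had a departure of 0.81 ± 0.16 (SE) and was above background on 3 wild-type, 4 heterozygous and 3 homozygous arrays. It too passed the background filter only through heterozygotes. The rest of the 12 smallest p-values above the midpoint were those of Csprs (0.56), the cathepsin gene Ctsw (0.51), the mucin gene Muc5ac (0.42), the p53 family member Trp73 (0.69), the semaphorin gene Sema3g (0.34), the vomeronasal receptor gene Vmn1r25 (0.42) and the kallikrein gene Klk10 (0.38). Their heterozygous means lay above both other means, and wild type and homozygotes did not differ past the adjusted threshold in any of the 12.

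**Figure D1:**
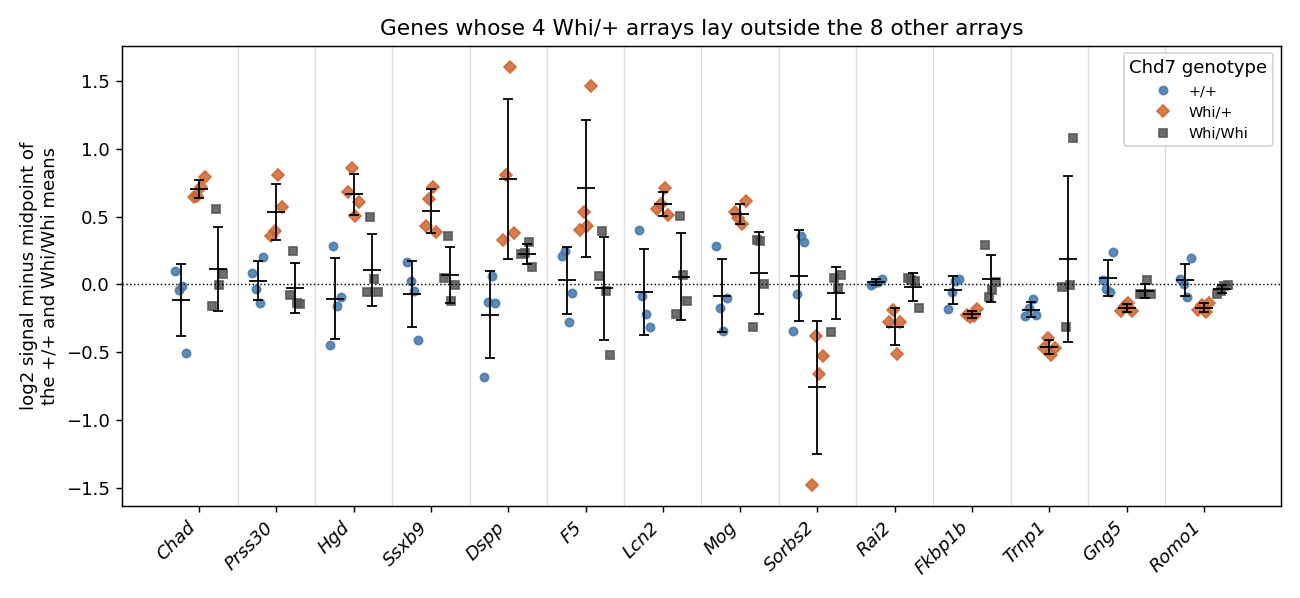
Log2 signal of 14 genes on the 12 arrays, minus the midpoint of the wild-type and homozygous means (dotted line). Points are arrays, horizontal marks are means and bars are SDs (n = 4); the 4 heterozygous diamonds lie above all other points for the first 8 genes, Chad to Mog, and below them for the last 6, Sorbs2 to Romo1.

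Below the midpoint, the genes with no overlap were fewer and the brightest of them moved little. Rai2, a retinoic acid induced gene, measured -2.04, -1.96, -2.28 and -2.04 in heterozygotes, -1.78, -1.76, -1.75 and -1.73 in wild type and -1.72, -1.73, -1.74 and -1.94 in homozygotes. Wild type and homozygotes lay together except for homozygous replicate 4, and the departure was -0.31 ± 0.08 (SE; limma adjusted p = 0.544). Sorbs2, an adaptor of the Z-disc and cell junctions, measured -7.46, -6.36, -6.64 and -6.51 in heterozygotes, where 1 array was above background, and its departure was -0.76 ± 0.20 (SE). Fkbp1b, whose product binds ryanodine receptors, measured -1.03 ± 0.03 in heterozygotes, -0.85 ± 0.10 in wild type and -0.77 ± 0.17 in homozygotes (SD, n = 4). Trnp1, a regulator of neural progenitor division, had a departure of -0.46 ± 0.20 (SE), with homozygous replicate 4 at -1.52 far above the other 3 homozygous arrays (-2.91 to -2.60).

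Several genes of this group were among the bright probes. Gng5, a G protein gamma subunit gene, measured 5.46, 5.50, 5.52 and 5.46 in heterozygotes, 5.61 to 5.90 in wild type and 5.59 to 5.69 in homozygotes. Its departure was -0.17 ± 0.07 (SE). The mitochondrial membrane protein genes Romo1 (-0.17) and Tmem223 (-0.19) and the ATP synthase subunit gene Atp5j (-0.10) had departures of that size, each with SEs of 0.06 to 0.07. Ankrd34a (-0.46) and the zinc finger gene Zfp558 (-0.54) complete the 10. Their departures were -0.23 without heterozygous replicate 1 for Ankrd34a and -0.34 without heterozygous replicate 4 for Zfp558.

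Among the 12 smallest p-values below the midpoint, Ctnna2, which encodes the neuronal alpha-catenin, measured -2.16, -2.04, -1.95 and -1.56 in heterozygotes, -1.05, -1.70, -1.28 and -1.11 in wild type and -1.28, -1.35, -1.35 and -1.45 in homozygotes. The heterozygous arrays were lowest except for replicate 4, which lay above wild-type replicate 2. The departure was -0.60 ± 0.14 (SE). Slc36a2, a proton-coupled amino acid transporter gene, had a departure of -0.61 ± 0.13 (SE), and the anchoring protein gene Akap6 one of -0.65 ± 0.14 (SE) with 1 heterozygous array above background. Pipox (-0.38), Tjp3 of the tight junction (-0.37), Parp14 (-0.70) and the sarcomere gene Myom3 (-0.55) were also among the 12, the last 2 with 2 heterozygous arrays above background. Efcab6 had a fitted departure of -1.41, but was above background only on the homozygous arrays, where it was at least 2.81-fold higher than in wild type, so neither its wild-type nor its heterozygous level was measured.

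The excess of positive departures lay in dim probes. Over all genes the median departure was 0.03 (quartiles -0.07 and 0.15), and 57.2% were positive. Sorted by mean signal into 5 groups of equal size, the median departure was 0.14 in the dimmest, then 0.06, 0.02, -0.006 and 0.008 in the brightest. In the dimmest group, the median distance from the midpoint on heterozygous replicates 1 to 4 was 0.16, -0.03, 0.21 and 0.22. It was -0.13 to 0.11 on wild-type and -0.06 to 0.20 on homozygous arrays. Homozygous replicate 2, at 0.20, thus lay among the heterozygous arrays, and heterozygous replicate 2 lay within the wild-type range. Unadjusted p-values under 0.05 were split into 575 higher and 102 lower genes in the dimmest group and into 65 and 39 in the brightest. Of the 66 genes whose heterozygous arrays were the highest, 32 lay in the dimmest group, 24 in the next and 1 in the brightest.

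The dimmest probe still well above background measured -6.87 to -6.44 on the heterozygous arrays, -7.28 to -6.45 on the wild-type arrays and -7.22 to -6.60 on the homozygous arrays. The 75th percentile by which each array was divided was 1115 to 1351 on heterozygous, 1382 to 1635 on wild-type and 1201 to 1746 on homozygous arrays. The part of either in the departures of dim genes was not tested. The split changed with the scaling. With quantile normalization 48.7% of departures were positive, and the genes at p under 0.05 were 965 higher and 626 lower. With normexp, 49.8% were positive, with 325 higher and 129 lower. That method adds 50 to every signal before the log and shrank the departures of dim genes, to 0.16 for Chad, 0.09 for Sypl2, 0.07 for Prss30, 0.08 for Hgd, 0.22 for Dspp, 0.38 for F5, 0.38 for Trp73, 0.04 for Sema3g, -0.18 for Slc36a2, -0.13 for Akap6, -0.20 for Sorbs2 and -0.30 for Trnp1. It also moved Olfr320 to 0.08, Ssxb9 to 0.09, Klk10 to 0.10, Muc5ac to 0.11, Gbp5 to 0.16, Ctsw to 0.18, Vmn1r25 to 0.20, Csprs to 0.35, Lcn2 to 0.36, Myom3 to -0.18, Zfp558 to -0.22, Parp14 to -0.26, Chil1 to -0.30 and Tmem223 to -0.11. The departures of Mog, Rai2, Ctnna2, Cbln1, Pipox, Tjp3, Fkbp1b, Gng5, Romo1 and Atp5j moved by less than 1.5 times under each alternative.

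**Figure D2:**
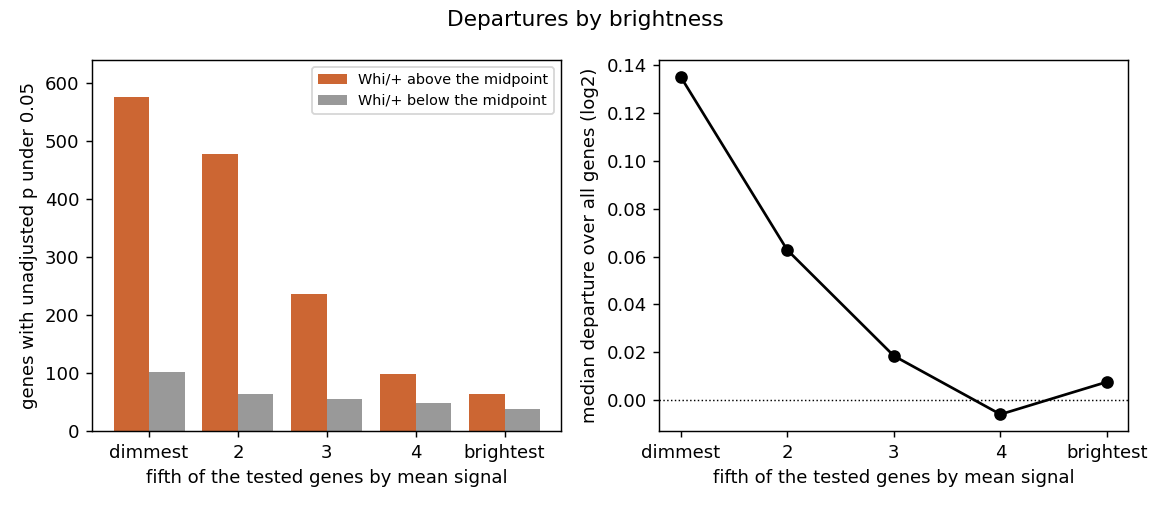
Departures of heterozygotes from the midpoint in 5 groups of the 22562 tested genes, ordered by mean log2 signal over 12 arrays. The left panel counts genes at an unadjusted p under 0.05 by direction, from 575 higher and 102 lower in the dimmest group to 65 and 39 in the brightest; the right panel gives the median departure, which falls from 0.14 to about 0.

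The 309 genes that differed between homozygotes and wild type were chosen by a contrast that is independent of the departure in this balanced design, apart from the shared estimate of spread. Among them, heterozygotes lay near the midpoint. On a scale where the wild-type mean is 0 and the homozygous mean is 1, the median position of the heterozygote mean was 0.50 (quartiles 0.38 and 0.61). The heterozygote mean lay between the outer means in 301 of 309 genes, beyond wild type in 4 and beyond homozygotes in 4. It lay between positions 0.25 and 0.75 in 255 genes (82.5%). In 16 of the 309, at least 1 genotype had 0 arrays well above background, so that its level is only a bound, and in the other 293 the median position was 0.50 as well.

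The departure turned toward homozygotes in 153 genes and toward wild type in 156, with a median in the direction of the homozygous change of -0.005 (quartiles -0.10 and 0.09). No departure passed the adjusted threshold, and 26 had an unadjusted p under 0.05, beside 7.81% of all genes tested. The 95% interval held the midpoint in 283 genes. In 191 of them it also excluded both the wild-type level and the homozygous level. It held the wild-type level in 60 genes and the homozygous level in 57, so for these genes a position at that end could not be told from the measured one. The genes were chosen for outer differences that are large against the shared spread. With small departures, exclusion of both ends follows in part from that choice, as does a heterozygote mean between the outer means.

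The 109 genes higher in homozygotes and the 200 lower in homozygotes differed somewhat in position, and this difference was not tested. The median position was 0.42 in the higher genes, with 67 departures toward wild type and 42 toward homozygotes, and 0.52 in the lower genes, with 89 toward wild type and 111 toward homozygotes. By array, the median position over the 309 genes was 0.48, 0.34, 0.57 and 0.58 on heterozygous replicates 1 to 4, and ranged from -0.10 to 0.11 on wild-type and from 0.94 to 1.06 on homozygous arrays, which the choice of the genes sets apart. Heterozygous replicate 2 lay nearest to wild type. Without it, 381 genes differed between the outer genotypes, 257 departures turned toward homozygotes and 124 toward wild type, and the median departure in the homozygous direction was 0.09. With the midpoint taken on the linear signal scale, which lies above the log2 midpoint, 190 turned toward homozygotes and 119 toward wild type, with a median of 0.05.

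**Figure D3:**
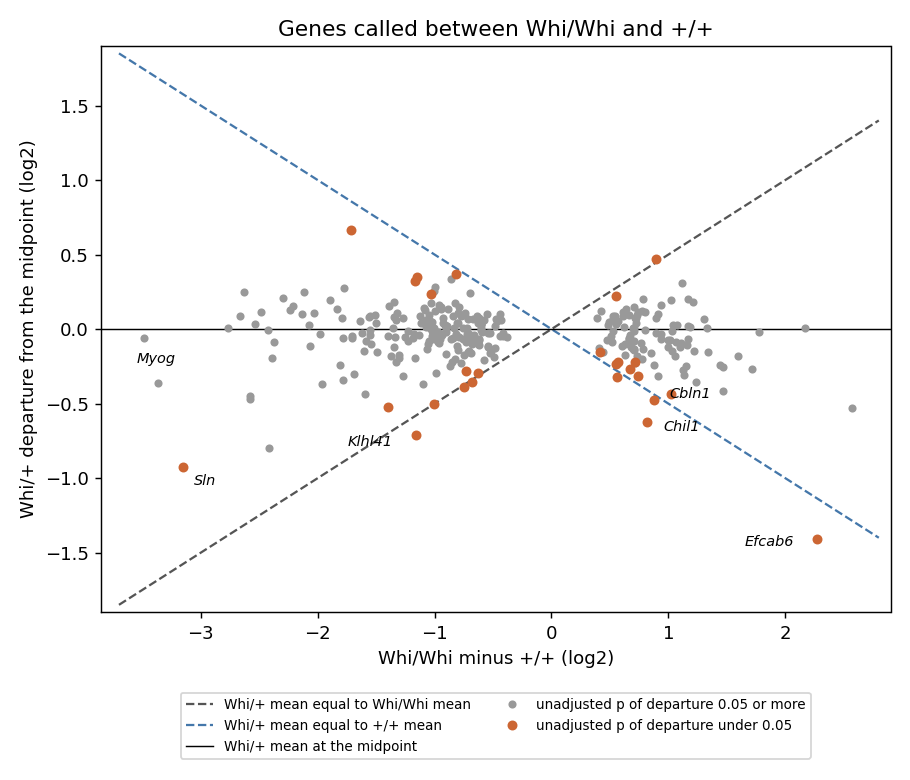
Departure of heterozygotes from the midpoint (vertical axis, log2) against the difference between homozygotes and wild type (horizontal axis, log2) for the 309 genes called in that difference. Dashed lines mark a heterozygote mean equal to an outer genotype; most points lie around the horizontal line of the midpoint, and the 26 orange points had an unadjusted p under 0.05.

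Of the 8 genes with the largest homozygous increases, 5 were measured in all genotypes. Rasl10a, a Ras-like GTPase gene, measured -6.44, -6.78, -6.25 and -6.60 in wild type, -5.51, -6.23, -6.08 and -5.88 in heterozygotes and -5.08, -4.63, -4.86 and -4.62 in homozygotes. The groups did not overlap, although wild-type replicate 3 and heterozygous replicate 2 lay next to each other. Its position was 0.34 and its departure -0.27 ± 0.15 (SE), or -0.41 without heterozygous replicate 1. Acsbg1, an acyl-CoA synthetase gene, stepped from -4.15 ± 0.21 to -3.54 ± 0.11 to -2.56 ± 0.43 (SD, n = 4), with no overlap between the groups and a departure of -0.18 ± 0.16 (SE). Casp12, the gene of a caspase of the endoplasmic reticulum, stepped from -6.32 ± 0.32 to -5.45 ± 0.16 to -4.55 ± 0.81 (SD, n = 4) with a departure of -0.02 ± 0.28 (SE). The desmosomal plakophilin gene Pkp1 (position 0.22) and Extl1 (position 0.33), a gene of heparan sulphate synthesis, lay nearer to wild type, with departures of -0.42 ± 0.23 and -0.26 ± 0.26 (SE), the second -0.12 without heterozygous replicate 1. The heterozygous arrays of Pkp1 overlapped the wild-type range.

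For Tff1 and Mr1 none of the wild-type arrays was well above background, and both were at least 2.78-fold and 1.81-fold higher in homozygotes. Tff1, the gene of a mucosal trefoil peptide, was above background on 2 heterozygous arrays, and Mr1, which encodes an antigen-presenting molecule, on 1.

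The largest homozygous decreases among genes with symbols were those of Myog, Myot, Sln, Neurod4, Cox8b, Tecrl, Cdh7 and Chl1. Myog, the transcription factor gene of muscle differentiation, measured -3.22, -3.66, -3.82 and -2.83 in wild type, -4.49, -4.38, -5.54 and -6.33 in heterozygotes and -7.40, -6.79, -7.07 and -6.23 in homozygotes. All heterozygous arrays lay below all wild-type arrays, and replicate 4 reached the homozygous range. Myog was well above background on 4 wild-type, 3 heterozygous and 2 homozygous arrays, so its homozygous level lies partly at the floor. The position was 0.52 and the departure -0.06 ± 0.36 (SE), so the interval from -0.84 to 0.72 left much room on both sides. Chl1, a neural cell adhesion gene, had a position of 0.45 and a departure of 0.11 ± 0.27 (SE). Neurod4, a neurogenic transcription factor gene, measured -6.20, -6.36, -7.19 and -8.68 on the heterozygous arrays, 2 of them above background, and was not above background on any homozygous array. Tecrl, a gene expressed in heart and muscle, measured -2.81, -2.82 and -2.90 on heterozygous replicates 2 to 4 and -5.22 on replicate 1, against -1.85 to -1.44 in wild type and -4.40 to -4.10 in homozygotes. Its departure of -0.47 ± 0.38 (SE) was 0.12 without replicate 1, so 1 array set its direction.

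Myot, Sln, Cox8b and Cdh7 were not well above background on any heterozygous or homozygous array, so the position of the heterozygotes is not measured for them. Sln, which encodes the calcium pump regulator sarcolipin, was at least 2.52-fold lower in homozygotes than in wild type, Myot at least 2.44-fold, the cadherin gene Cdh7 at least 1.97-fold and the muscle cytochrome oxidase gene Cox8b at least 1.93-fold. The heterozygous arrays of Cdh7 measured -7.12, -7.06, -7.25 and -7.09, below the 4 wild-type arrays (-6.13 to -5.73).

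**Figure D4:**
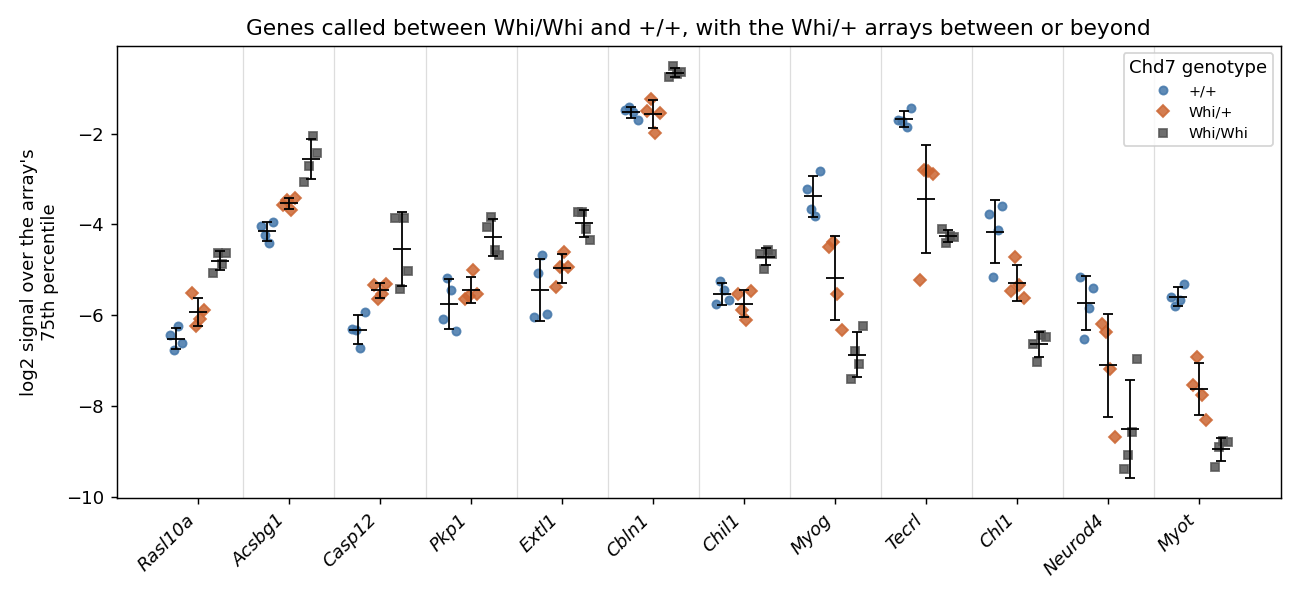
Log2 signal over the array's 75th percentile for 12 genes called between homozygotes and wild type, on the 12 arrays. Points are arrays, horizontal marks are means and bars are SDs (n = 4); the heterozygous diamonds lie between the other groups for Acsbg1 and Rasl10a, with the wild-type points for Cbln1, and on 1 array below the homozygous points for Tecrl.

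Some of the 309 genes lay near 1 outer genotype, at an unadjusted p under 0.05 and none past the adjusted threshold, and those that follow, other than Cbln1 and Chil1, were chosen after their values were seen. Cbln1, the gene of a synapse-organising secreted protein, measured -1.50, -1.23, -1.98 and -1.55 in heterozygotes, -1.47, -1.42, -1.52 and -1.70 in wild type and -0.75, -0.52, -0.70 and -0.65 in homozygotes. Heterozygous and wild-type arrays overlapped and the homozygous arrays lay above both. The departure was -0.47 ± 0.12 (SE; limma adjusted p = 0.544). Chil1, a chitinase-like gene, was at position -0.26 with a departure of -0.62 ± 0.14 (SE). Mgst2, a microsomal glutathione transferase gene, was at position 0.08, Rtn4rl1, a Nogo receptor family gene, at 0.08, Cyp2j9 at -0.08 and Ptchd1 at 0.05.

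At the other end, Txlnb, a muscle taxilin gene above background on every array, measured -2.49 in wild type, -3.497 in heterozygotes and -3.498 in homozygotes as means of 4 arrays, with a departure of -0.50 ± 0.17 (SE). Clvs1, a clavesin gene, had a departure of -0.53 ± 0.21 (SE). Klhl41 and Tshr were above background on 1 heterozygous and 1 homozygous array each, and Myo7b on 2 and 2, so the nearness of heterozygotes to homozygotes in these genes lies at the floor of the measurement. Of the genes on the homozygous side, 8 of 10 were lower in homozygotes, beside 111 of the 153 departures toward homozygotes among all 309 genes. Of those on the wild-type side, 11 of 16 were higher in homozygotes, beside 67 of 156. These shares were not tested. The 8 include Klhl41, Tshr, Myo7b and Sln, the last above background on 0 heterozygous and 0 homozygous arrays.

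Genes of the fixed lists that differed between homozygotes and wild type numbered 45. In 42 of them the heterozygote position lay between 0.25 and 0.75, beside 255 of all 309 called genes (82.5%). The median position was 0.49, beside 0.50 over the 309. For the departure, 1 of the 45, Sln, had an unadjusted p under 0.05, beside 26 of the 309 and 7.81% of all genes tested. All such members of the axon guidance and face lists, in order of position, had intermediate heterozygotes. The netrin receptor gene Unc5c was at 0.31 and Flrt2 at 0.41, the ephrin receptor genes Epha7 and Epha3 at 0.38 and 0.41, and the ligand gene Slit2 at 0.46. The secreted semaphorin genes Sema3c, Sema3d and Sema3a were at 0.44, 0.46 and 0.54, and the craniofacial homeobox genes Prrx1 and Alx1 at 0.43 and 0.45. In the neural crest list, the lower gene Twist1 was at 0.34, Zic1 at 0.56, and the higher genes Tfap2c, Foxd3 and Sox10 at 0.43, 0.50 and 0.52. The otic and limb growth factor gene Fgf10 was at 0.50, with a departure of 0.01 ± 0.13 (SE). In the matrix list, Has2 was at 0.42, Col3a1 at 0.45, Vcan at 0.49, Col9a1 at 0.61, Col4a2 at 0.72 and Hapln1 at 0.74. In the skeletal muscle list, the higher gene Casq2 was at 0.36, and the lower genes Myog, Myf6, Tnnc2 and Myh3 at 0.52, 0.53, 0.63 and 0.83. Myf6 and Myh3 were above background on 2 heterozygous and 2 homozygous arrays, and the positions of Myot and Sln were not measured.

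Departures of 1 log2 unit or more were measured in 81 genes (0.359%), 40 higher and 41 lower. Of the 41 lower genes (0.182%), 14 belonged to the heart muscle list, and without heterozygous replicate 1 the departure was still -1 or less in 5 of the 41. Of the 40 higher genes, 27 kept a departure of 1 or more without that array.

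Heart muscle genes, which encode the contractile and secretory proteins of cardiomyocytes, lay below the midpoint in 24 of 24 members tested, while 57.2% of all genes lay above it. The median departure was -1.04, beside 0.03 over all genes. No member passed the adjusted threshold, and 1, the myoglobin gene Mb, lay below at an unadjusted p under 0.05, as did 1.37% of all genes. The departure of Mb was -0.47 ± 0.17 (SE), or -0.30 without heterozygous replicate 1. The departure of the list came from 1 array. The atrial peptide gene Nppa measured -5.30 on heterozygous replicate 1 and 1.69, 1.88 and 1.54 on the other heterozygous arrays, against 1.80 to 2.24 in wild type and 1.74 to 2.48 in homozygotes. The cardiac myosin gene Myh6 measured -1.06 on that array and 4.29 to 5.33 on the other 11, and 22 of the 24 members were more than 2 below their midpoint on it. Without heterozygous replicate 1, the median departure of the list was -0.08, with 10 members positive. In whole-embryo RNA, fewer cells of a type and less RNA per cell cannot be told apart.

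Skeletal muscle genes, several of which are also used by the heart, had 19 of 21 members below the midpoint, while 57.2% of all genes lay above it. Their median was -0.17, which was -0.06 with 8 members positive without that array. The regulators of heart formation had a median of -0.09 (7 positive, 10 negative), which was 0.10 without heterozygous replicate 1. Nkx2-5 and Tbx20 had departures of -0.68 ± 0.38 and -0.69 ± 0.39 (SE), which were -0.14 and -0.22 without that array.

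Hox genes, which pattern the body axis, lay above the midpoint in 29 of 29 members tested, beside 57.2% of all genes, with a median departure of 0.38. No member passed the adjusted threshold, and 4 lay above at an unadjusted p under 0.05, as did 6.44% of all genes. Hoxd3 measured -0.31, -0.70, -0.31 and -0.54 in heterozygotes, -0.42, -0.57, -0.79 and -0.90 in wild type and -1.31 to -0.92 in homozygotes. Heterozygous arrays lay within or above the wild-type range and above all homozygous arrays, and the departure was 0.43 ± 0.12 (SE). Hoxc8 had a departure of 0.72 ± 0.27 (SE), which was 0.47 without heterozygous replicate 1. The list medians on heterozygous replicates 1 to 4 were 0.98, 0.28, 0.40 and -0.29. Without replicate 1 the median departure was 0.17, with 24 members positive.

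Single members, chosen after their values were seen, were far higher on that array. Hoxc10 measured -0.72 there and -7.11 to -4.67 on the other arrays, and Hoxd11 measured -2.67 there and -6.80 to -5.60 elsewhere.

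Genes of presomitic mesoderm and somites lay above the midpoint in 21 of 23 members tested, beside 57.2% of all genes, with a median of 0.36. At an unadjusted p under 0.05, 7 lay above, as did 6.44% of all genes, and none passed the adjusted threshold. Tbx6, a regulator of presomitic mesoderm, measured -1.60, -3.31, -2.37 and -2.49 in heterozygotes, -3.42 to -3.08 in wild type and -3.65 to -2.94 in homozygotes. Heterozygous replicates 1, 3 and 4 lay above all other arrays and replicate 2 among them, and the departure was 0.77 ± 0.25 (SE), or 0.49 without replicate 1. Mesp2, a segmentation gene, had a departure of 1.57 ± 0.54 (SE), with heterozygous replicate 3 highest at -3.33 and replicate 2 at -6.48. The list medians on heterozygous replicates 1 to 4 were 0.76, 0.11, 0.37 and 0.11, and without replicate 1 the median departure was 0.14 with 18 members positive. The tail bud genes T and Cdx2, named after their values were seen, measured 1.10 and 1.20 on replicate 1, above -1.31 and -0.81, the highest of the other arrays.

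Hypoxia and glycolysis genes lay above the midpoint in 29 of 33 members, beside 57.2% of all genes, with a median of 0.11 that also came from 1 array. The list median was 0.67 on heterozygous replicate 4 and -0.25 to 0.01 on the other heterozygous arrays, against -0.25 to -0.17 on wild-type and 0.14 to 0.28 on homozygous arrays. Ldha, the lactate dehydrogenase gene, had a departure of 0.26 ± 0.16 and the cytokine gene Mif one of 0.19 ± 0.10 (SE), the latter 0.10 without replicate 4. Without replicate 4 the median departure was -0.15 with 7 members positive.

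Fgf pathway genes lay above the midpoint in 17 of 20 members, beside 57.2% of all genes, with a median of 0.21 that stayed between 0.14 and 0.28 under the 25 alternatives. The list medians on the heterozygous arrays were 0.30, 0.11, 0.00 and 0.26, and those on the 8 other arrays were -0.13 to 0.10. No member passed the adjusted threshold, and 3 lay above at an unadjusted p under 0.05, as did 6.44% of all genes. Among the ligands, Fgf8 had a departure of 0.36 ± 0.18 and Fgf17 one of 0.78 ± 0.34 (SE), and among the feedback targets, Spry4 measured -2.59, -2.74, -2.72 and -2.71 in heterozygotes, -3.34 to -2.90 in wild type and -3.14 to -2.61 in homozygotes. Its departure was 0.34 ± 0.12 (SE), and the target gene Etv4 had one of 0.43 ± 0.17 (SE), which was 0.22 without heterozygous replicate 1. The receptor genes Fgfr1, Fgfr2 and Fgfr3 had departures of -0.01, 0.17 and -0.12. Fgf8, Fgf17 and the receptors were chosen by their role, after their values were seen. Fgf17 measured -3.96 on heterozygous replicate 1 and -6.06 to -5.37 on the other heterozygous arrays.

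Embryonic globin and erythroid genes had 15 of 16 members positive. Over all genes 57.2% were positive, a share that stands beside the count of each list in this and the following paragraphs. The median of the globin and erythroid list was 0.29. It was 0.11 without wild-type replicate 3, 0.17 without heterozygous replicate 2 and 0.18 without homozygous replicate 2. Its medians of 0.01 to 0.68 on heterozygous arrays lay inside the wild-type range of -0.84 to 0.76. Visceral endoderm and liver bud genes had 18 of 22 members positive and a median of 0.35, which ran from 0.10 without homozygous replicate 3 to 0.63 without homozygous replicate 1. Their heterozygous arrays (-0.06 to 0.78) lay inside the homozygous range of -1.42 to 2.22, and the log2 of the summed signal of 5 yolk sac markers was 2.61 to 3.93 in heterozygotes, 1.27 to 4.17 in wild type and 0.86 to 5.24 in homozygotes. The part of such tissue in these departures was not tested. Extraembryonic genes had a median of 0.15 (11 positive, 7 negative) that turned negative without heterozygous replicate 4. Maternal decidua genes had a median of -0.08 (4 positive, 6 negative), and 2 of 3 decidual markers were above background on 0 arrays. Macrophage genes had 9 of 11 members positive and a median of 0.21, which was 0.03 with normexp, and endothelial genes 16 of 20 and a median of 0.11.

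**Figure D5:**
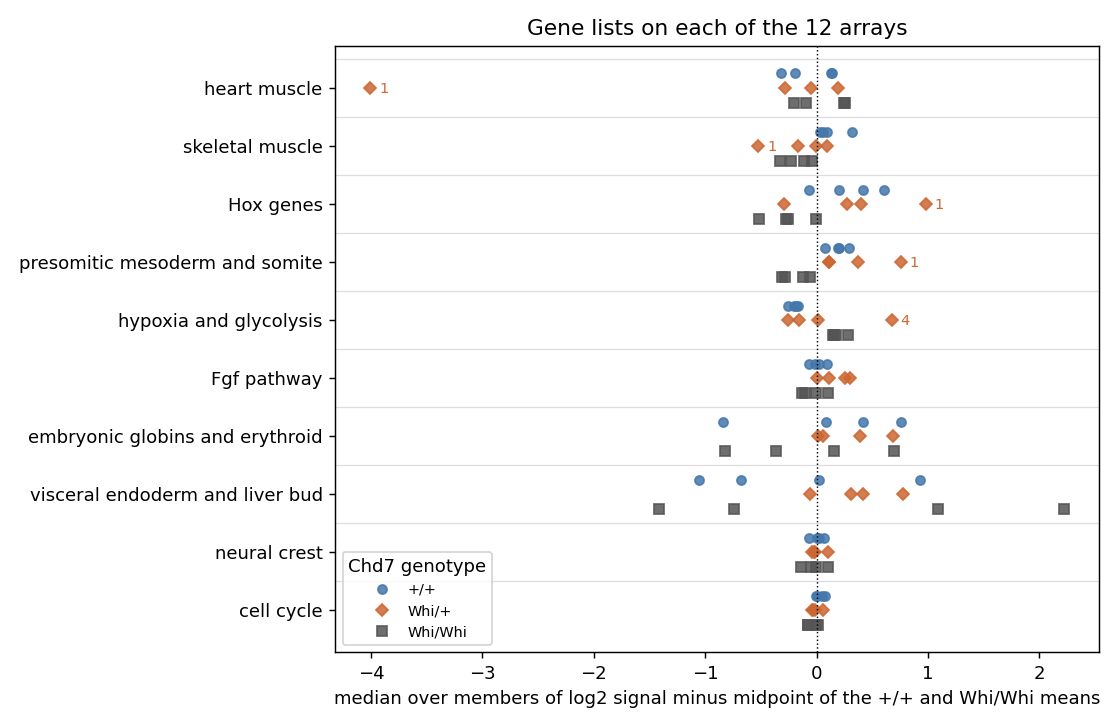
Median over the members of 10 gene lists of the log2 signal minus the midpoint of the wild-type and homozygous means, on each of the 12 arrays. Numbers mark heterozygous replicates; replicate 1 lies at -4.01 for heart muscle and highest for Hox genes (0.98) and presomitic mesoderm and somite (0.76), and replicate 4 is highest for hypoxia and glycolysis (0.67).

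Lists of neural crest, face, ear, neural and axon guidance genes had medians between -0.05 and 0.10, beside 0.03 over all genes. Neural crest genes had 14 positive and 14 negative members and a median of -0.01. Within it, the transcription factor gene Tfap2b had a departure of -0.37 ± 0.16 (SE), or -0.23 without heterozygous replicate 4. Genes of the pharyngeal arches and face had 18 of 31 positive and a median of 0.10, which was 0.002 without heterozygous replicate 1 and 0.01 without replicate 2, with Osr2 at 0.65 ± 0.20 (SE). Otic and placode genes had 16 of 24 positive and a median of 0.04, negative under 3 of the 25 alternatives. The preplacodal gene Foxi3 was at 0.37 ± 0.14 (SE). Neurogenesis genes had 14 of 37 positive and a median of -0.05, positive under 3 of the 25 alternatives. Neural progenitor genes had 14 of 23 and 0.02, negative under 6 of the 25, with -0.0008 under normexp. Semaphorins and receptors had 16 of 30 positive and a median of 0.01. It was negative under 6 of the 25 alternatives, quantile normalization and normexp among them. The receptor gene Plxna1 was at 0.52 ± 0.14 (SE). Ephrins and Eph receptors had 10 of 20 positive and a median of 0.006, negative under 5 of the 25 alternatives, quantile normalization among them. Ephb2 was at 0.42 ± 0.11 (SE). Slit, Robo and netrin genes had 15 of 20 positive and a median of 0.06. None of these members passed the adjusted threshold.

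Among the other signalling lists, the Wnt pathway had a median of 0.08 (22 of 30 positive), which was negative without heterozygous replicate 1. The Hedgehog pathway had 0.02 (10 of 18), negative under 6 of the 25 alternatives, quantile normalization and normexp among them. Retinoic acid had 0.05 (13 of 17). Mesenchyme and matrix genes had a median of 0.07 (20 of 31 positive) and imprinted genes one of 0.08 (13 of 19). Epidermis and desmosome genes had -0.009 (11 of 22), positive under 10 of the 25 alternatives. The Chd chromatin remodellers and partners had 0.01 (12 of 20), negative under 8 of the 25, normexp among them.

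Among housekeeping and stress lists, mitochondrial respiration had 7 of 27 members positive and a median of -0.06, and cytosolic ribosomal proteins 27 of 32 and 0.08, which was -0.01 with quantile normalization. Cell cycle genes had 12 of 28 positive and a median of -0.008, positive under 8 of the 25 alternatives, normexp among them. Cholesterol synthesis had 13 of 21 and 0.01, negative under 7 of the 25, normexp among them. The p53 targets had 15 of 21 and 0.05, and the unfolded protein response 17 of 19 and 0.09. Heat shock proteins had 8 of 13 and 0.09, and immediate early genes 11 of 19 and 0.11. In all, 27 of 36 lists had a positive median, and 19 of 36 kept the sign of their median under the 25 alternatives. Leaving out single arrays moved the median by over 1.5 times, or turned its sign, in 34 of 36 lists, all but the Fgf pathway and macrophage lists.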

How the data were processed

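One-colour microarrays (Agilent, Cy3) measured RNA from 12 samples, 4 per genotype, on 3 slides that each held all 3 genotypes. The deposited intensity values are processed signals that Agilent Feature Extraction 10.7.3.1 made from each spot, per the file headers, and the series' value table held the same numbers. Each array was divided by its 75th percentile and the authors' intensity put on the log2 scale here, with control spots (1377) and outlier spots left out. Spots of a probe were averaged, and a gene took its probe with the highest mean signal. Symbols came from matching the files' accessions to a RefSeq table (GRCm38.p6), for 26055 of 39429 probes, and other probes keep the files' identifiers. A gene was tested when all 4 arrays of at least 1 genotype were well above background, which left 22562.

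The departure was a contrast in limma 3.58.1 (R 4.3.3) over all arrays, with Benjamini-Hochberg adjustment over all genes at 0.05, tested on simulated data. Named genes were the 12 smallest p-values in each direction, the 10 largest departures in each direction among genes outside all other arrays, the 8 largest homozygous differences in each direction and the 2 smallest p-values of each list described, all with symbols, and others are marked. A result that these rules would name is not reported here. The contrast, the 36 gene lists and the rules were chosen with earlier results of these data known. The alternatives were normexp correction (offset 50, on the median spot signal), quantile normalization, other filters, every probe on its own, the series' value table, blocks for slide, array position and title number, array weights, a trended variance, the linear scale and each array left out. The number of arrays limits the precision.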

Additional observations from a re-analysis of the deposited data

Results flagged for a closer look

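Single samples stood far from the other 3 of their genotype in 6 of 108 groups of list medians and in 12 of 159 groups of named genes, by Dixon's test of the gap to the nearest sample. Chance gives this in about 1 in 20 groups. List medians are log2 signals relative to the midpoint.

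Heterozygous replicate 1 had the heart muscle list at -4.01, against -0.28 to 0.19 on the other heterozygous arrays, and Tecrl at -5.22, against -2.90 to -2.81. The same array had the cholesterol synthesis list at 0.152 and Ankrd34a at -4.13. Heterozygous replicate 4 had the endothelium list at -0.024, below 0.12 on the other heterozygous arrays, the Chd chromatin remodellers at -0.067, F5 at -3.51, above -4.57 to -4.43, and Zfp558 at -5.88. Heterozygous replicate 3 had Pkp1 at -5.01.

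Among wild-type samples, replicate 3 had the unfolded protein response list at -0.089, replicate 1 had Akap6 at -5.44 and replicate 2 had Zfp558 at -3.88. Among homozygous samples, replicate 2 had the unfolded protein response list at -0.198, Hgd at -6.37 and Ankrd34a at -3.18, replicate 1 had Akap6 at -6.58, replicate 3 had Gng5 at 5.69 and replicate 4 had Rai2 at -1.94.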

How the results depend on the processing

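No gene passed the adjusted threshold for the departure under any of the 25 alternatives run (limma), where unadjusted p-values under 0.05 numbered from 454 with normexp correction to 3508 without heterozygous replicate 2. The count of genes whose heterozygous arrays lay outside all others, 83, was 13 with normexp. It was 89 to 611 with 1 array left out, which can only raise it. The 309 genes called between homozygotes and wild type numbered 93 with normexp, 186 with no filter on dim probes, 533 with array position as a random block and 531 with array weights. Leaving out single arrays gave 114 (wild-type replicate 1), 116 (wild-type replicate 4), 152, 139 and 142 (homozygous replicates 1, 2 and 3). The median departure of these genes stayed within -0.06 and 0.09. The cause of these shifts was not tested.

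The labels do not say what the title numbers mark. Wild-type replicates 2 and 3 share the number 50, and heterozygous replicates 3 and 4 the number 53. Across genotypes, correlations of deviations ran from -0.317 to 0.294 over 11 pairs of the same number. Over 37 pairs of different numbers they ran from -0.345 to 0.237. The ranges overlap, and so few pairs cannot tell whether samples of the same number are related. With the number as a fixed block, 0 departures passed, 773 had an unadjusted p under 0.05, and 17 genes were called between homozygotes and wild type. The numbers 33 and 69 each occur on a single array, homozygous replicates 1 and 4. The fixed block takes up these arrays entirely, so only homozygous replicates 2 and 3 inform that fit. As a random block the number gave 0, 1747 and 292.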
